A study of Mus musculus with 4 samples.

Results

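Polycomb repressive complex 2 (PRC2) and the demethylases that undo its mark were examined through 10 genes, taken by symbol from the 36088 genes of the deposited table. They are the core subunits Ezh1, Ezh2, Eed and Suz12, the accessory subunits Jarid2, Mtf2, Phf19 and Epop, and the demethylases Kdm6a and Kdm6b, and all 10 were found once each. The 4 libraries came from wild-type mouse male germ cells that had been sorted from fetal testes in culture, 2 after culture in DMSO, the solvent control, and 2 after culture with CBR-5884. The comparison bears on what serine metabolism contributes to male germ cell differentiation. CBR-5884 is a small molecule that blocks Phgdh, the enzyme that commits a glycolytic intermediate to serine. The sample titles give day 14 for all of them, and the sources used here give no dose, strain, sorting marker or scheme by which testes were divided among cultures. The design text names biological replicates but not separate animals, so the tests measure the spread between these libraries, which may be partly technical.

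PRC2 places methyl groups on lysine 27 of histone H3, a mark of silent developmental genes. The catalytic subunit is Ezh1 or Ezh2, and it works only with Eed, which binds the finished mark and stimulates the enzyme, and Suz12, which holds the complex together. Accessory subunits direct the complex to CpG-rich DNA and come in alternative sets, one built on the Polycomb-like proteins Phf1, Mtf2 and Phf19 together with Epop, the other on Jarid2 and Aebp2. Kdm6a and Kdm6b remove the mark. The methyl donor, S-adenosylmethionine, is made from methionine, and serine feeds the one-carbon units that regenerate methionine. In male germ cells PRC2 is known to hold down somatic and developmental genes.

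Germ cell transcripts were abundant in every library. The 9 germ cell markers summed to 3537 to 3791 TPM, a level per transcript length relative to the library total, and none was at 0. Sertoli cell markers summed to 339 and 257.8 TPM in DMSO libraries 2 and 4. In CBR-5884 libraries 2 and 4 they summed to 311 and 293 TPM. The lysosomal protease Ctsl, which other cells also express, made up the most of each sum. More specific markers differed more between DMSO libraries 2 and 4, with Amh at 38.5 and 16.55 TPM and Cldn11 at 28.7 and 15.8 TPM. Among the Sertoli markers only Gata4, at 11.2 and 11.7 TPM, was not lower in DMSO library 4. Stromal markers summed to 44.6 to 55.6 TPM, endothelial markers to 9.31 to 10.5 TPM, Leydig markers to 4.90 to 7.0 TPM and blood and macrophage markers to 4.49 to 13.9 TPM, with both haemoglobin genes at 0 in all libraries. Relative read depth was estimated by taking the commonest ratio of low values between libraries as that of single reads. After scaling by these ratios, only 7.6 to 23.1% of low values lay within 0.05 of whole multiples of a step. The single-read basis was thus not borne out, and the depths are uncertain. Relative depth came to 0.872 and 0.796 for the DMSO libraries and 0.899 for CBR-5884 library 4, with CBR-5884 library 2 set to 1. In such bulk samples fewer cells of a type and less RNA per cell cannot be told apart.

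The start regions of the members are shown first because most share a feature that the choice by symbol did not use. RefSeq start sites on GRCm38.p6 matched 8 of the 10 members and gave 10 windows of 300 bases, from 250 before to 50 after the start. Of these windows 9 had at least 50% G and C and a CpG count of at least 0.6 of that expected from base composition. The share among all 32851 windows was 33.5%. Those windows were not limited to genes expressed here, so the feature is not shown to be particular to the members. Suz12 had 41 CpG, Phf19 38, Ezh2 31 and Ezh1 23, where the median over all windows was 7, and the window outside those limits was the downstream start of Mtf2, with 2. The sequences before the starts of Ezh1, a member that varied little, and Kdm6a, one of the 2 members whose groups did not overlap, are printed 5′ to 3′ with each CpG in capitals.
Ezh1, chr11:101226464-101226713, strand minus: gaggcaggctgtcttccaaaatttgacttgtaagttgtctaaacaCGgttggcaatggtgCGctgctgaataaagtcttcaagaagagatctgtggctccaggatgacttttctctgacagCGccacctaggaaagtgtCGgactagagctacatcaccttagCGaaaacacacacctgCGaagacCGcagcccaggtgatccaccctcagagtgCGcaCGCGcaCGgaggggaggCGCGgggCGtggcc
Kdm6a, chrX:18162325-18162574, strand plus: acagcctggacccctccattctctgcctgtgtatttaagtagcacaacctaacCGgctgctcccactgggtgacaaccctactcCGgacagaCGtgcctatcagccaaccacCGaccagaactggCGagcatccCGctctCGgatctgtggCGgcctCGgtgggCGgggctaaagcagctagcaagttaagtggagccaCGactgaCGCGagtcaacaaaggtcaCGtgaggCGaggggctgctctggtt
The 250 bases before Ezh1 hold 14 CpG and those before Kdm6a 15. Motifs were counted on both strands of the 300-base windows. GGGCGG, the core of SP factor sites, was in 6 of the 10 windows and in 35.7% of all windows, with 4 copies at Phf19 and 3 at Suz12. CCAAT was in 6, with 3 copies at Ezh2, and in 37.4% of all windows. GCGGGAA, an E2F-like word, was in those of Suz12 and Phf19 and in 4.6% of all windows, and CACGTG was in that of Kdm6a and in 7.15% of all windows. These are letter matches in fixed windows and were not tested as sites.

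All 10 genes were expressed in every library, and they ranged widely in mean TPM. Eed was the most abundant, with a mean of 260.6 TPM over the 4 libraries, followed by Jarid2 at 144 and Mtf2 at 139. Suz12 had 98.2, Ezh2 69.7, Ezh1 51.5 and Kdm6b 46.9 TPM. Epop had 20.8, Kdm6a 19.99 and Phf19 7.05 TPM. The ranges over libraries overlapped for the neighbours Jarid2 and Mtf2 and for Epop and Kdm6a, and each of these orders held in 3 of 4 libraries. The other 7 neighbours in the order had ranges apart, the closest being Ezh1 over Kdm6b by 1.1-fold. The median mean level of the 14920 genes tested was 21.4 TPM, and 7 of the 10 members lay above it.

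**Figure D1:**
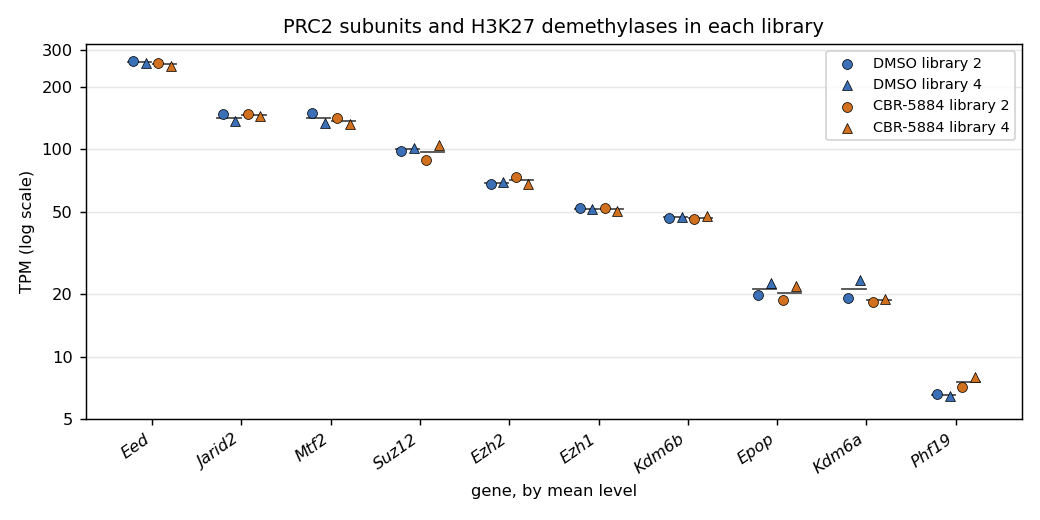
TPM (log axis) of each of the 10 genes, ordered by mean level, with 1 point per library (blue DMSO, orange CBR-5884, circles library 2, triangles library 4) and a line at each group's mean of 2 libraries. Eed lies near 260.6 TPM and Phf19 near 7.05 TPM, and points of both colours lie together for most genes, with Phf19 and Kdm6a the genes whose colours do not overlap.

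The mRNA levels of these genes were close between CBR-5884 and DMSO. Of the 10, 0 passed an adjusted p of 0.05 (limma on log2(TPM + 1), Benjamini-Hochberg over all genes), where 0% of the 14920 genes tested were called. At an unadjusted p under 0.05 there were 0 of 10, against 3.66% of all genes (1.51% with CBR-5884 the higher and 2.15% with it the lower). The fold changes lay between −0.17 and 0.18 on the log2 scale, with 3 positive and 7 negative, though the signs of Ezh1 and Kdm6b turned with equal library totals and those of Ezh1, Eed and Kdm6b with quantile normalization. Leaving out 1 library turned the sign of Ezh1, Ezh2, Suz12, Jarid2, Mtf2, Epop or Kdm6b, and only Phf19 and Kdm6a kept 1 sign under all 13 alternatives run for each gene. The median of the 10 members was −0.02, beside −0.01 for all genes tested, and their median absolute fold change was 0.05, beside 0.11. The groups did not overlap for 2 of 10, 1 in each direction, against 31.3% of all genes. The 95% intervals had a median half-width of 0.22 (log2), beside 0.37 over all genes. These comparisons with all genes were not matched for level, and 7 of the 10 members lay above the median level. The smaller values are thus not shown to be particular to the members.

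Ezh1, the catalytic subunit found also in cells that do not divide, had 51.9 and 51.5 TPM in DMSO libraries 2 and 4 and 52.0 and 50.6 TPM in CBR-5884 libraries 2 and 4. The 4 values differed by 1.03-fold at most, and the groups overlapped. The 95% interval of its change, on the scale of TPM + 1, ran from 0.86- to 1.15-fold. Ezh2, the more active methyltransferase of dividing cells, had 67.7 and 69.5 TPM with DMSO and 73.8 and 67.8 TPM with CBR-5884. Only CBR-5884 library 2 stood higher among these 4, and the interval ran from 0.89- to 1.2-fold (log2 fold change 0.04, SE 0.088).

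Eed had 267 and 260.4 TPM with DMSO and 262 and 253 TPM with CBR-5884, with an interval of 0.87- to 1.1-fold. It was the narrowest interval among the members, and the groups overlapped. Suz12 had 97.8 and 102 TPM against 88.8 and 105 TPM. Both CBR-5884 values lay outside the DMSO values, one below and one above, so that the spread within CBR-5884 (SD 11.2, n = 2) exceeded the difference of the means, 99.7 and 96.7 TPM. Its interval was 0.81- to 1.15-fold. The core subunits summed to 485 and 483 TPM with DMSO and to 477 and 476 TPM with CBR-5884.

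Among accessory subunits, Jarid2, which links PRC2 to nucleosomes that carry the PRC1 mark on histone H2A, had 147 and 136 TPM with DMSO and 148 and 144 TPM with CBR-5884. The SD of the DMSO values, 7.68 TPM (n = 2), exceeded the difference of the group means, 142 and 146 TPM. Mtf2, a Polycomb-like protein that binds unmethylated CpG DNA, had 149.7 and 134 TPM against 141 and 133 TPM. In both groups library 2 was the higher, and the interval of the change was 0.83- to 1.12-fold. Epop, which joins PRC2 to elongin and tempers its output, had 19.8 and 22.5 TPM against 18.7 and 22.0 TPM. Here library 4 was the higher in both groups, by 0.18 and 0.22 on the log2 scale, while the difference between conditions was −0.06 (interval −0.41 to 0.30).

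Phf19, another Polycomb-like protein and the least abundant member, had 6.62 and 6.47 TPM with DMSO and 7.10 and 8.0 TPM with CBR-5884. Both CBR-5884 values were above both DMSO values, as they were for 13.6% of all genes. The log2 fold change of 0.18 (SE 0.186) had an interval of 0.83- to 1.55-fold and an unadjusted p of 0.377 (limma adjusted p = 0.998). A larger absolute fold change was found for 30.4% of all genes tested. Its interval was the widest of the 10.

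The demethylases were the members with the least and nearly the most difference. Kdm6b had 46.5 and 47.3 TPM with DMSO and 46.2 and 47.4 TPM with CBR-5884. The CBR-5884 values enclosed the DMSO values, and the interval was 0.86- to 1.16-fold. Kdm6a, which is encoded on the X chromosome and also acts in the Kmt2c and Kmt2d complexes, had 19.1 and 23.45 TPM with DMSO and 18.4 and 19.0 TPM with CBR-5884. Both CBR-5884 values were below both DMSO values, as they were for 17.7% of all genes, but DMSO library 2 lay just above CBR-5884 library 4. The log2 fold change was −0.17 (SE 0.146, interval −0.53 to 0.19, limma adjusted p = 0.998), and leaving out DMSO library 4 gave −0.03, leaving out DMSO library 2 −0.31.

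**Figure D2:**
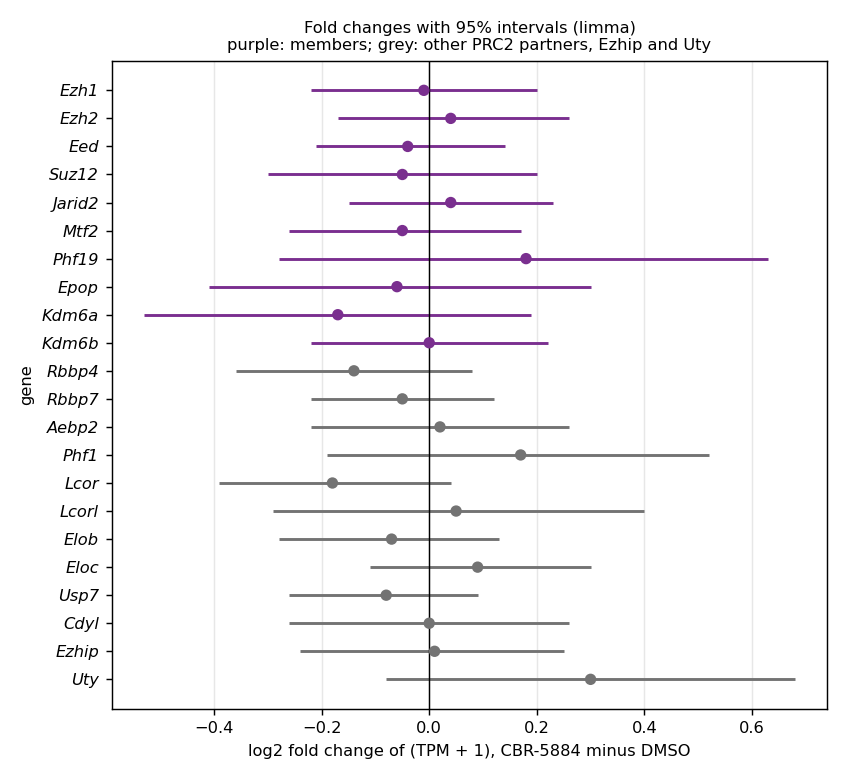
Log2 fold change of TPM + 1 (CBR-5884 minus DMSO, x axis) with its 95% interval from limma for each gene (y axis), members in purple and other PRC2 partners, Ezhip and Uty in grey. Every interval drawn includes 0, and those of Phf19, −0.28 to 0.63, and Kdm6a, −0.53 to 0.19, are the widest among the members.

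Ratios within a library compare members free of the library's scaling. The ratio of Ezh2 to Ezh1 TPM was 1.30 and 1.35 with DMSO and 1.42 and 1.34 with CBR-5884. Ezh2 was thus the more abundant of the pair in 4 of 4 libraries, and the mean log2 ratio of 0.41 ± 0.033 with DMSO and 0.46 ± 0.058 with CBR-5884 (SD, n = 2) differed by 0.06 (exact permutation test, two-sided, p = 0.67). The sum of Mtf2, Phf19 and Epop over Jarid2, members of one accessory set over the member of the other, was 1.20 and 1.19 with DMSO and 1.13 and 1.13 with CBR-5884. Both CBR-5884 values lay below both DMSO values, and the log2 difference of −0.08 reached p = 0.33 in the exact permutation test (two-sided), the smallest that 2 against 2 libraries can give. With Phf1 added to the first set and Aebp2 to the second, a choice made after seeing the data, the ratio was below 1 in every library, at 0.82 and 0.86 with DMSO and 0.80 and 0.81 with CBR-5884 (log2 difference −0.05, exact permutation test, two-sided, p = 0.33). Which set was the more abundant thus turned on these additions. Kdm6a plus Kdm6b over Ezh1 plus Ezh2 was 0.55 and 0.58 with DMSO and 0.51 and 0.56 with CBR-5884. Methyltransferase transcripts exceeded demethylase transcripts in 4 of 4 libraries, the groups overlapped, and the log2 difference was −0.08 (exact permutation test, two-sided, p = 0.67). These 3 ratios form 1 family, and none can pass a threshold of 0.05 at this size with or without adjustment.

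**Figure D3:**
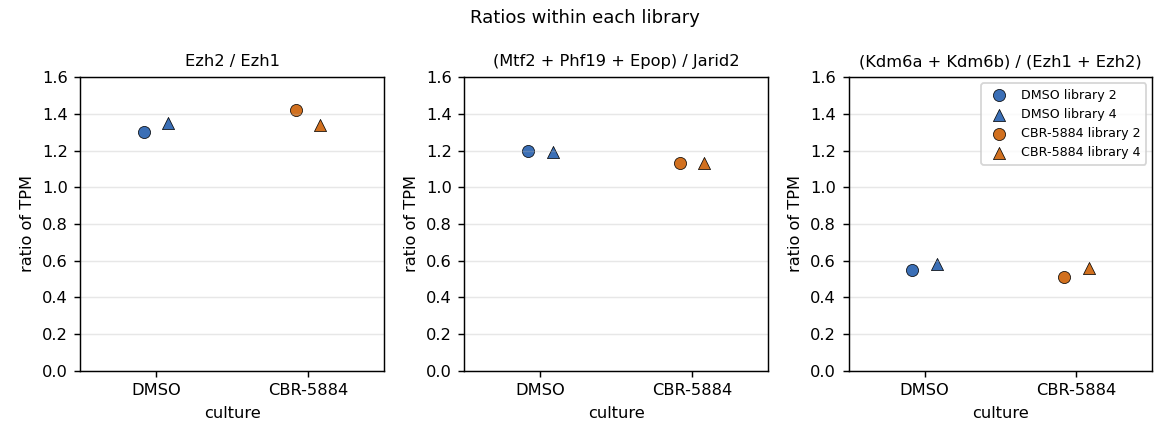
Ratio of TPM (y axis, from 0) within each library for 3 pairs of gene sums, with DMSO libraries in blue and CBR-5884 libraries in orange. The middle panel shows 1.20 and 1.19 against 1.13 and 1.13, the only ratio of the 3 whose groups do not overlap.

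The remaining subunits and partners of PRC2 also had small fold changes, though groups without overlap were more frequent than among the members. Of the 10 genes in this list 0 passed the adjusted threshold and 0 had an unadjusted p under 0.05 (limma), with a median log2 fold change of −0.02 and a range of −0.18 to 0.17. There was no overlap for 2 genes with the CBR-5884 values above and 4 with them below, against 13.6% and 17.7% of all genes. The histone-binding subunits Rbbp4 and Rbbp7, shared with other chromatin complexes, had means of 428 and 389 TPM and of 290.2 and 280.9 TPM for DMSO and CBR-5884. Their reads may be split, since 22.0% and 16.5% of their 31-base words occur in other genes, as do 20.5% of those of Elob and 32.5% of those of Phf1, mostly in Cuta. Of the exonic bases of Phf1, 43.8% are shared with genes on the opposite strand. Aebp2, the partner of Jarid2, had 86.7 and 74.9 TPM against 83.4 and 79.9 TPM, and Phf1, the third Polycomb-like protein, had 15.55 and 18.6 TPM against 18.8 and 19.7 TPM. Lcor, whose locus also encodes a PRC2 cofactor, had 120.2 and 129.6 TPM against 105 and 116 TPM (log2 fold change −0.18, interval −0.39 to 0.04), and its relative Lcorl had 13.6 and 14.6 TPM against 14.65 and 14.6 TPM. The elongin subunits Elob and Eloc, partners of Epop, had log2 fold changes of −0.07 and 0.09, the deubiquitinase Usp7 −0.08 and the PRC2-binding chromodomain protein Cdyl 0.00. Ezhip, a gonadal protein that inhibits PRC2, was well expressed at 52.2 and 46.3 TPM with DMSO and 49.5 and 49.4 TPM with CBR-5884 (log2 fold change 0.01, interval −0.24 to 0.25), close to the level of Ezh1.

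Genes that act with or against the mark also gave 0 calls (limma adjusted p). Of 12 further genes of histone demethylation and of the complexes that Kdm6a joins, 1 had an unadjusted p under 0.05, against 3.66% of all genes, and both CBR-5884 values lay above both DMSO values for 2 and below for 2, against 13.6% and 17.7%. Ncoa6, a subunit of the Kmt2c and Kmt2d complexes, had 71.5 and 63.9 TPM with DMSO and 53.0 and 59.1 TPM with CBR-5884 (log2 fold change −0.27, limma unadjusted p = 0.0424, adjusted p = 0.998). Uty, the Y-linked relative of Kdm6a with weak enzyme activity, had 14.9 and 12.4 TPM against 17.7 and 16.3 TPM, a log2 fold change of 0.30 (interval −0.08 to 0.68). Its groups did not overlap, with CBR-5884 the higher, whereas for Kdm6a CBR-5884 was the lower. Kmt2d, a methyltransferase of the complex that Kdm6a joins, had 52.2 and 56.0 TPM against 55.1 and 78.3 TPM, and its log2 fold change of 0.28 was 0.03 without CBR-5884 library 4. The shared subunits Wdr5, Ash2l and Dpy30 had −0.07, −0.09 and −0.04. In the acetylation list, whose mark excludes methylation of the same lysine, 1 of 7 had an unadjusted p under 0.05, and for 4 of 7 both CBR-5884 values lay below both DMSO values and for 0 above, beside the shares of 3.66%, 17.7% and 13.6% of all genes. Crebbp, an acetyltransferase, had 112.9 and 113 TPM with DMSO and 100.2 and 94.4 TPM with CBR-5884 (log2 fold change −0.21, limma unadjusted p = 0.0336, adjusted p = 0.998). The deacetylase Hdac1, with 40.0% of its words in other genes, had a log2 fold change of −0.19, and Hdac2 had −0.02. Of the 7 readers of the mark 0 had an unadjusted p under 0.05. Bahd1, Cbx2 and Bahcc1 were the most abundant, with log2 fold changes of −0.05, −0.07 and 0.01.

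Most of the known Polycomb target genes in the lists had a mean under 1 TPM, but so did most genes of the table. Of 88 in the lists 59 had a mean under 1 TPM and were not tested, as did 21168 of all 36088 genes. At 0 in all 4 libraries were 9 of the 88, a smaller share than the 9950 of all 36088 genes. Low levels are thus not shown to be particular to these targets. The lists hold targets known in many cell types, and whether these cells share them was not tested. Among the 29 tested 0 passed the adjusted threshold (limma), the smallest unadjusted p values being those of HoxB genes. Outside the Hox genes 17 were tested and 0 had an unadjusted p under 0.05, against 3.66% of all genes. Of these 17, 11 had a negative fold change, and both CBR-5884 values lay below both DMSO values for 6 and above for 0, against 17.7% and 13.6% of all genes. Pax7, counted in both the 11 and the 6, averaged 1.09 TPM and so barely passed the limit of 1 TPM. Its DMSO levels, 1.26 and 2.01 TPM, were above that limit, whereas the treated libraries, at 0.69 and 0.42 TPM, were below it. Pax7 was thus tested only because of its DMSO level. Cdkn2a, a cell cycle inhibitor and classic Polycomb target, was abundant at 146 and 152 TPM with DMSO and 152 and 130.3 TPM with CBR-5884 (log2 fold change −0.08), while its neighbour Cdkn2b had 9.64 and 9.61 TPM against 7.97 and 7.57 TPM (log2 fold change −0.28, interval −0.69 to 0.14). The transcription factors Lhx1 and Wt1 had log2 fold changes of 0.20 and 0.14, which turned to −0.13 and −0.33 without DMSO library 4. Gata2 had −0.33, and −0.17 without DMSO library 2. Wt1, Sox9 and Gata4 are also in the list of Sertoli cell markers, and Gata4 is counted in both the 11 and the 6.

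All 10 HoxB genes passed the level filter, against 2 of 29 genes of the other Hox clusters and 14920 of all 36088 genes. These HoxB genes lie in 1 cluster on chromosome 11 and were set apart after their values had been seen. Counts over them are thus a description and not a test. Hoxb8 had 41.8 and 29.8 TPM with DMSO and 22.3 and 20.99 TPM with CBR-5884 (log2 fold change −0.68, SE 0.175, limma unadjusted p = 0.00786, adjusted p = 0.998). Leaving out DMSO library 2 gave −0.44 and leaving out DMSO library 4 gave −0.92 for Hoxb8. Hoxb5 had 5.90 and 5.49 TPM against 2.39 and 3.16 TPM (log2 fold change −0.83, limma unadjusted p = 0.0116), and Hoxb6 had 10.96 and 10.92 TPM against 8.21 and 7.91 TPM (−0.40, limma unadjusted p = 0.0498). For 6 of the 10 both CBR-5884 values lay below both DMSO values, against 17.7% of all genes, and for 1, Hoxb13, both lay above. Hoxb4 had 13.1 and 9.60 TPM against 7.87 and 8.92 TPM and Hoxb2 8.08 and 6.62 TPM against 4.85 and 5.71 TPM, whereas Hoxb7 had 13.9 and 9.95 TPM against 11.7 and 12.7 TPM. Of the exonic bases of Hoxb3 and Hoxb2, 52.9% and 27.3% are shared with the antisense gene Hoxb3os, and the sources used here do not say whether strand was used. The median log2 fold change of the 10 was −0.34, and −0.23 without DMSO library 2. DMSO library 2, highest for Hoxb8, also had the highest sum of Sertoli markers, while DMSO library 4, next for Hoxb8, had the lowest, and the part of other cell types in these values was not tested.

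**Figure D4:**
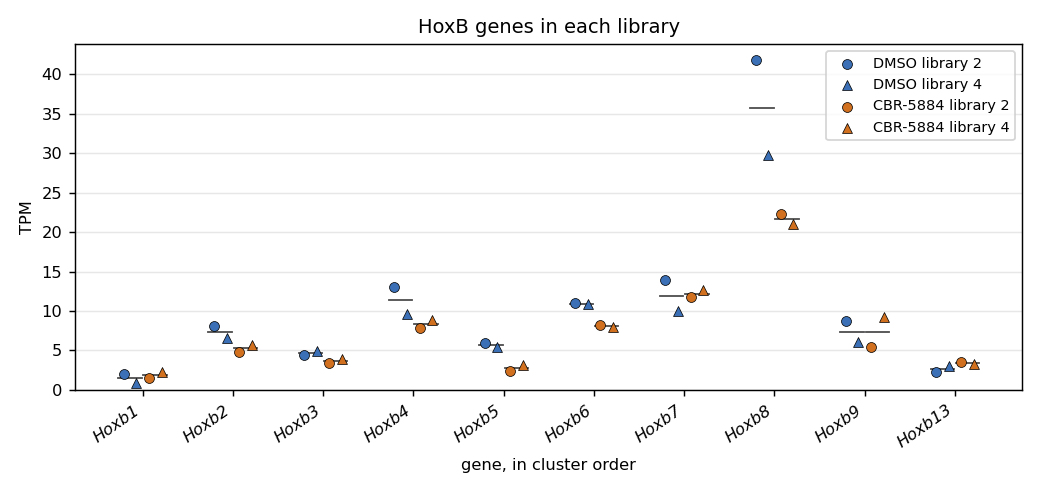
TPM (y axis, from 0) of the 10 HoxB genes in each library, in cluster order, with group means of 2 libraries as lines. Hoxb8 is the most abundant, at 41.8 and 29.8 TPM with DMSO (blue) and 22.3 and 20.99 TPM with CBR-5884 (orange), and Hoxb5 and Hoxb6 also have both orange points below both blue points.

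The members' transcripts shared few words with other genes of GENCODE M21. The sources used here do not name the transcript set given to kallisto, so sharing in the actual assignment of reads may differ. Of the 31-base words of the members' GENCODE M21 transcripts, 0% (Phf19, Epop) to 7.61% (Eed) occur in other genes. The words shared by Ezh2, Eed, Suz12, Mtf2 and Kdm6b lie mostly in genes on the opposite strand, with 2.61, 6.82, 3.6, 6.93 and 4.11% of exonic bases, and Kdm6a shares 0.825% of its words with Uty. The members lie on chromosomes 2 (Phf19, 34893757 to 34914026), 5 (Mtf2, 108065674 to 108109004), 6 (Ezh2, 47530139 to 47595341), 7 (Eed, 89954654 to 89980983), 13 (Jarid2, 44729474 to 44921643) and X (Kdm6a, 18162575 to 18279936), and on chromosome 11 with Kdm6b (69398508 to 69413675), Suz12 (79993106 to 80034123), Epop (97627389 to 97629702) and Ezh1 (101191115 to 101226463), all on GRCm38. No transcript of a member can be told from another in the table, since each gene has 1 value per library.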

How the data were processed

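Reads were handled with fastp and kallisto on mm10, per the submitters' processing notes, without versions or settings in the sources used here. As deposited, the table gives 1 gene value per library as TPM and as scaled reads per base, both treated as signal values and repeated on each transcript line of a gene, of which 1 was kept. TPM summed to 966761 to 1002976 per library. Low values were not whole multiples of a step (7.6 to 23.1% within 0.05), so no count test was used and the design's choice for data without counts applied. Library names carry the numbers 2 and 4, which are not the labelled replicate numbers, so only the condition of each is certain.

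limma 3.58.1 in R 4.3.3 (trend, two-sided) was fitted to log2(TPM + 1) of all 4 libraries over the 14920 genes that averaged 1 TPM or more, leaving out 21168, and was tested on simulated data. A fold change understates that of low genes. Members, gene lists and tests were chosen with earlier results of these data known. All members and other PRC2 partners are named. Of other lists the 3 most abundant, the 2 with the largest absolute fold change at a mean TPM of at least 5, and those at an unadjusted p under 0.05 are named. Further genes named are examples picked after their values were seen. A gene that this rule names is not reported here. Alternatives were pseudocounts, filters, scalings, robust variance, the other measure, a block and left-out libraries.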

Additional observations from a re-analysis of the deposited data

How the results depend on the processing

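Under 13 alternatives for each of 10 members, 116 of 130 values kept their direction and 0 passed the threshold (limma). The filters, robust variance and the block cannot change a member's fold change. Their share of the 116 was therefore fixed in advance and says nothing about direction. The number of members called, of other PRC2 and H3K27 genes called and of Polycomb target genes called was 0 under each. Over all genes 1 was called with scaled reads per base and 1 with robust variance estimates, the cause was not tested, and 0 were called when any 1 of the 4 libraries was left out. With equal library totals the fold change was 0.016 for Ezh1 and 0.023 for Kdm6b and the members' median 0.004. With quantile normalization it was 0.010 for Ezh1, 0.013 for Eed and 0.015 for Kdm6b, with a median of 0.011. Those scalings shift the median of all genes to 0.015 and 0.002 from −0.011.

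Leaving out each library in turn gave a members' median of −0.014 to −0.001. The fold change ranged from −0.030 to 0.009 for Ezh1, −0.016 to 0.104 for Ezh2, −0.062 to −0.010 for Eed, −0.166 to 0.069 for Suz12, −0.012 to 0.097 for Jarid2, −0.129 to 0.035 for Mtf2, 0.101 to 0.254 for Phf19, −0.167 to 0.056 for Epop, −0.311 to −0.028 for Kdm6a and −0.021 to 0.014 for Kdm6b. The log2 ratio of Ezh2 to Ezh1 differed by 0.014 to 0.096, that of the accessory sets by −0.084 to −0.078 and that of demethylases to methyltransferases by −0.141 to −0.014. Libraries of the same table number deviated together with a correlation of 0.2 over 14920 genes. The sources used here do not say whether equal numbers mark paired samples, and the main fit used no pairing. A replicate block on these numbers called 0 genes. With Phf1 and Aebp2 added to the sums, an alternative chosen after seeing the data, the accessory ratio differed by −0.052. Phf19, the least abundant member, had the widest interval. With 2 libraries a group, a change smaller than the half-width of its interval could not be told from 0. Larger changes could also go uncalled. The interval of Hoxb5, −1.40 to −0.26, left out 0, yet its limma adjusted p was 0.998.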
